A study of Mus musculus with 10 samples.

Results

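Fc receptors bind the constant part of antibodies, and 6 mouse genes for the receptors that macrophages use for IgG were followed here across 10 RNA sequencing libraries of peritoneal macrophages. They are Fcgr1, Fcgr3 and Fcgr4, which encode activating receptors, Fcer1g, which encodes the signalling chain these receptors share, Fcgr2b, which encodes the inhibitory receptor, and Fcgrt, which encodes the heavy chain of the neonatal Fc receptor FcRn. They were chosen by name, as 6 of the 54532 genes of the deposited table, and all 6 had a mean above 10 normalized counts in each of the 3 groups. Peritoneal macrophages are the phagocytes of the abdominal cavity. The labels place 3 libraries (replicates 1, 2 and 3) in an aged Trem1-/- group, 3 (replicates 3, 4 and 6) in an aged wild-type group and 4 (A, B, C and E) in a young wild-type group. Trem1 encodes an activating receptor of myeloid cells that amplifies inflammatory signals, and the study asked how its deletion changes gene expression in aging macrophages. The labels give no age in months, sex, batch, isolation step or type of deletion, and name no young Trem1-/- group. Whether each library is a separate mouse is not said, so p-values measure the spread between these libraries, which may be technical.

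In the textbook account, IgG that coats a particle gathers the activating receptors on a macrophage. Src-family kinases then phosphorylate the tyrosine motifs of the common gamma chain, Syk binds there, and actin remodelling and the NADPH oxidase follow. Mouse Fcgr1, Fcgr3 and Fcgr4 need this gamma chain both to reach the cell surface and to signal. Fcgr2b carries an inhibitory tyrosine motif instead, recruits the phosphatase encoded by Inpp5d, and is the Fc gamma receptor of B cells as well. FcRn does not signal in this way. It pairs with beta-2-microglobulin, binds IgG in acidic endosomes and returns it to the surface.

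Of the 6 genes 4 lie within 275749 bases of chromosome 1 in the mouse genome build GRCm38 (GENCODE M21 annotation). These are Fcgr2b (ENSMUSG00000026656.15, 170958617 to 170976547, minus strand), Fcgr4 (ENSMUSG00000059089.4, 171018920 to 171029761, plus strand), Fcgr3 (ENSMUSG00000059498.13, 171051174 to 171064935, minus strand) and Fcer1g (ENSMUSG00000058715.11, 171229572 to 171234365, minus strand). Fcgr1 (ENSMUSG00000015947.10) lies on chromosome 3, 96282909 to 96293969, and Fcgrt (ENSMUSG00000003420.8) on chromosome 7, 45092990 to 45103851, both on the minus strand. Fcgr2b and Fcgr3 are near-identical in part: 6.95% of the 50-base stretches of Fcgr2b exons also occur in other genes, Fcgr3 among them, and 9.58% of those of Fcgr3 occur in Fcgr2b, so some reads could be split between them. Fcgr2b exons also overlap the antisense gene Gm38204 over 2.68% of their bases. Gene counts do not separate the B cell and macrophage isoforms of Fcgr2b.

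The promoters of the 3 activating receptors and of their signalling chain are shown because Fcgr3 and Fcer1g moved together in these libraries while Fcgr4 did not. Each sequence is the 120 bases before the start site that RefSeq lists (GRCm38.p6), read 5′ to 3′ on the gene's own strand. They lie at chr3:96293970-96294089 for Fcgr1 (minus strand), chr1:171059404-171059523 for Fcgr3 (minus strand, first of 2 listed start sites), chr1:171018806-171018925 for Fcgr4 (plus strand) and chr1:171234350-171234469 for Fcer1g (minus strand). On the minus strand the GENCODE M21 gene of Fcgr3 starts at 171064935, so the Fcgr3 stretch lies inside that gene. Capitals mark GAGGAA, a core of the sites that the myeloid factor PU.1 binds, searched on both strands (TTCCTC on the strand shown).
Fcgr1: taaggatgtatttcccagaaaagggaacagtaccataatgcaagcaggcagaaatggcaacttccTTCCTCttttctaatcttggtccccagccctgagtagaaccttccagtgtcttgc
Fcgr3: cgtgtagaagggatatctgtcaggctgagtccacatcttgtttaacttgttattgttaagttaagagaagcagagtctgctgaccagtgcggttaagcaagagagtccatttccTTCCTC
Fcgr4: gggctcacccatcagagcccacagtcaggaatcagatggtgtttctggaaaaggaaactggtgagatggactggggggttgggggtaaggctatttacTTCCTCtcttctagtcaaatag
Fcer1g: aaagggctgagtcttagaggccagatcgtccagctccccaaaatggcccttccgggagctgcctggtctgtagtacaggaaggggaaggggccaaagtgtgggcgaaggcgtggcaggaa
The letters TTCCTC stand 55 to 50 bases before the start site of Fcgr1, 6 to 1 bases before that of Fcgr3 and 22 to 17 bases before that of Fcgr4. In the full promoter windows of 250 bases before to 50 after the start, this motif was not present in Fcer1g, Fcgr2b or Fcgrt. GAGGAA occurred in 28.3% of 32851 promoter windows of that length. These matches describe the letters only.

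The deposited values are normalized read counts, and 2663744 to 5603498 reads per library were recovered from them. In aged wild type the macrophage markers were lower and lymphocyte markers higher than in the other groups, and this stands beside each result below. The 11 macrophage markers (Adgre1, Csf1r, Itgam, Cd68, Lyz2, Mertk, Cd14, Icam2, Gata6 and Timd4 among them) were all read in each group and summed to 64623 to 84628 normalized counts in the libraries labelled Trem1-/-, 25116 to 40040.3 in aged wild type and 75849 to 82598 in young wild type. Lyz2 alone made up most of each sum, with 47328 to 64105, 16977 to 26847 and 54625 to 61447 normalized counts in the same order of groups. With limma 8 of the 11 markers were higher in the libraries labelled Trem1-/- than in aged wild type, and 9 of the 11 were lower in aged than in young wild type. The 12 B cell markers, all read in each group, summed to 6373 to 13361, 14119 to 22135 and 2551 to 5635 in the same order of groups. Of these, 3 were lower in the first of those comparisons and 11 were higher in the second. In the first, all 12 were lower at an unadjusted limma p under 0.05, and edgeR called 4 and DESeq2 10. Of all tested genes limma called 18.4% in the first comparison and 33.3% in the second. The 8 T cell markers summed to 55.2 to 91.3, 224 to 416 and 34.9 to 76.7, and red cell markers reached 23701 in aged wild-type replicate 4, against 473 and 529.9 in the other 2 libraries of that group. Fewer cells of a type and less RNA per cell cannot be told apart in such bulk samples. Gm26917, a noncoding RNA gene, took 4.999% to 5.68% of reads in the libraries labelled Trem1-/-, 8.38% to 12.9% in aged wild type and 5.06% to 5.70% in young wild type. Mitochondrial genes took 1.26% to 2.39%, 3.17% to 5.26% and 1.19% to 2.13% of reads in the same order of groups, and mesothelial and fibroblast markers summed to 17.4 to 328, 380 to 513 and 4.93 to 257 normalized counts, with 1 of 5 tested called higher in aged than in young wild type. Krt18 made up most of the mesothelial and fibroblast sum in aged wild-type replicates 3 and 4 (280 and 352 normalized counts), and had 50.3 in replicate 6. The part of Gm26917, the mitochondrial genes and these markers in the results below was not tested. Trem1 itself had 47.7 ± 50.5 normalized counts in the libraries labelled Trem1-/- (SD, n = 3). It had 35.4 ± 25.4 in the 3 libraries of aged wild type and 14.8 ± 6.98 in the 4 of young wild type. It was thus read in the libraries labelled Trem1-/- at levels that overlap both wild-type groups, and the genotype is used as labelled.

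Levels are compared between genes per kilobase of merged exons. On this scale the means of Fcgr3 and Fcer1g stood highest in each group, and that of Fcgr1 stood lowest. The order depends on these lengths, 5790 bases for Fcgr2b and 874 for Fcer1g. By normalized counts Fcgr2b averaged above Fcer1g in each group (893 and 228 in aged, 670 and 442 in young wild type). By the same counts Fcgr4 (86.5) averaged below Fcgr1 (112) in young wild type. In young wild type Fcgr3 had 1068 ± 32.0 normalized counts per kilobase, Fcer1g 505 ± 32.7, Fcgrt 222 ± 38.3, Fcgr2b 116 ± 9.75, Fcgr4 68.8 ± 13.2 and Fcgr1 43.4 ± 7.19 (SD, n = 4), with no overlap between neighbours in this order. In the libraries labelled Trem1-/- the order of means was the same, but the libraries of Fcgrt (145 to 217), Fcgr2b (141 to 252) and Fcgr4 (65.7 to 197) overlapped one another. In aged wild type Fcgr2b (112 to 192) and Fcgr4 (114 to 228) had means above that of Fcgrt (85.9 to 188), and these 3 likewise overlapped. Fcer1g (176 to 358) overlapped Fcgr2b, Fcgr4 and Fcgrt there, and did not overlap Fcgr3 (406 to 1062).

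**Figure D1:**
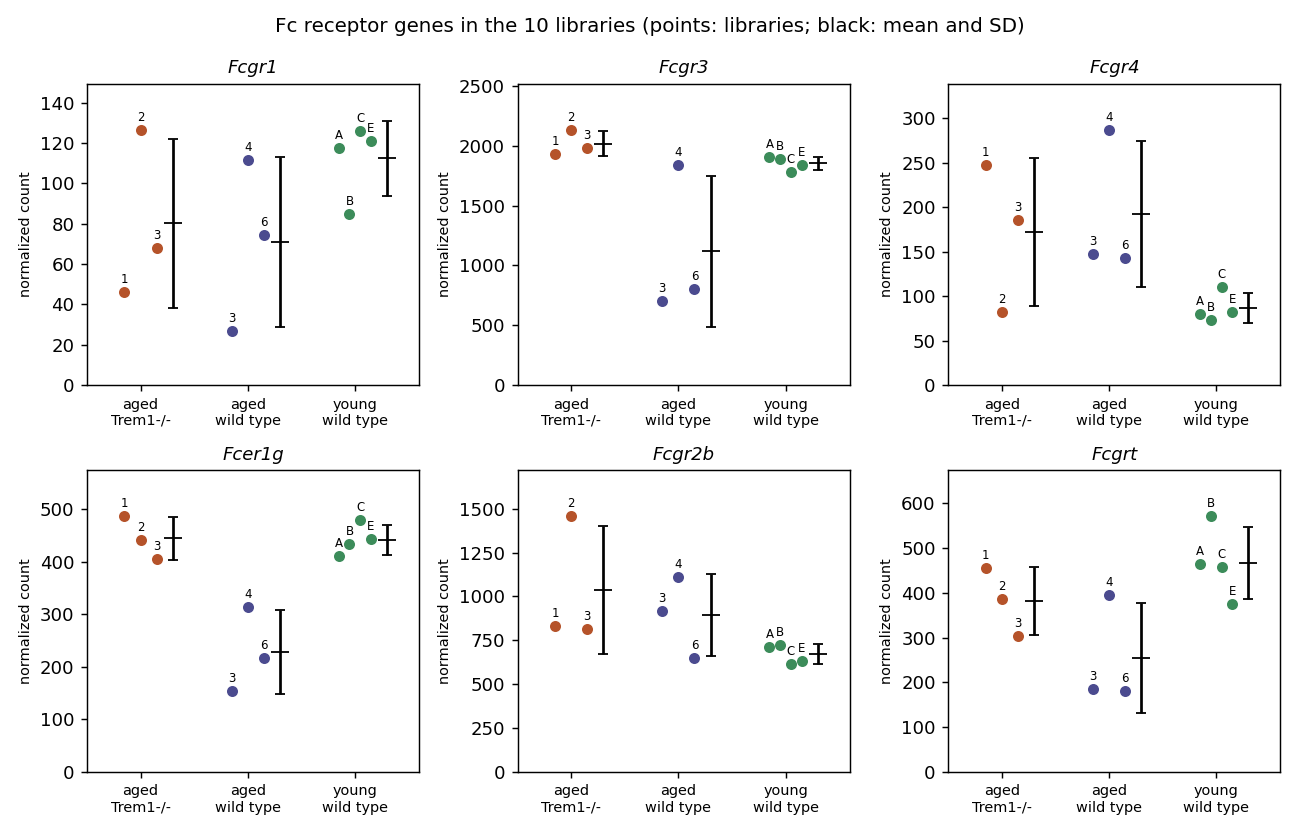
Normalized counts (vertical axes, each from 0) of the 6 Fc receptor genes in each library, with the replicate beside the point; bars show the mean and SD of the libraries labelled aged Trem1-/- (n = 3), aged wild type (n = 3) and young wild type (n = 4). Fcer1g is lower in the 3 aged wild-type libraries than in all others, while aged wild-type replicate 4 lies near or above young wild type for Fcgr3, Fcgrt and Fcgr4.

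Aged wild type was set against young wild type to ask how these receptors change with age. Fcer1g, Fcgr3 and Fcgrt fell in aged wild type, to about 0.50, 0.55 and 0.51 of the young level in limma's fit, whereas Fcgr4 rose 2.12-fold. Fcgr1 and Fcgr2b did not pass the test. Thus 3 of 6 genes were lower and 1 was higher at a limma adjusted p under 0.05, with 33.3% of the 11506 tested genes called in either direction (19% lower and 14.3% higher). The median log2 fold change of the 6 genes was -0.86, against -0.02 over all tested genes. Scaled by read totals without Gm26917, mitochondrial and immunoglobulin genes, 2701 tested genes were higher and 1423 lower, in place of 1647 and 2190. The 4 calls and their directions held under that scaling. The authors' deposited table, from their own DESeq2 comparison, called the same 4 genes in the same directions, with log2 fold changes of -0.95 for Fcer1g, -0.73 for Fcgr3, -0.88 for Fcgrt and 1.16 for Fcgr4.

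Fcer1g, the common gamma chain, had 154, 313 and 217 normalized counts in aged wild-type replicates 3, 4 and 6. Young wild-type libraries A, B, C and E had 410.5, 433, 479 and 444. All 3 aged libraries lay below all 4 young ones (log2 fold change -1.01 ± 0.19 SE, limma adjusted p = 0.00211). The groups of 40.3% of tested genes did not overlap, in one direction or the other. This call held under all 20 alternatives tried, leaving out each library included, with adjusted p-values up to 0.0100.

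Fcgr3, the low-affinity activating receptor of most mouse phagocytes, had 705, 1843 and 804 normalized counts in aged wild-type replicates 3, 4 and 6, against 1904, 1891, 1782 and 1841 in young wild-type libraries A, B, C and E. Aged replicate 4 lay within the young range, and the other aged libraries lay far below it. The log2 fold change was -0.87 ± 0.25 SE (limma adjusted p = 0.0207). Without aged replicate 4 it was -1.299, and without aged replicate 3 or 6 the adjusted p was 0.0935 or 0.0926. The call was also lost with edgeR's quasi-likelihood test (adjusted p = 0.0618).

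Fcgr4, a receptor that binds mouse IgG2a and IgG2b and is found on monocytes, macrophages and neutrophils, went the other way. It had 147, 287 and 143 normalized counts in aged wild-type replicates 3, 4 and 6, against 80.2, 72.7, 110.5 and 82.5 in young wild-type libraries A, B, C and E. All 3 aged libraries lay above all 4 young ones (log2 fold change 1.08 ± 0.34 SE, limma adjusted p = 0.0308). Without aged replicate 4 the change was 0.76 (adjusted p = 0.104), and without young replicate A, B or E the adjusted p was 0.0658 to 0.0679. The 6 monocyte markers summed to 1122 to 1408 normalized counts in aged wild type and 844 to 971 in young wild type, and the 9 neutrophil markers to 218 to 561 and 639 to 908. Of the monocyte markers 2 of 4 tested were higher and 1 lower, and the 1 neutrophil marker tested, Csf3r, was lower. Csf3r held most of the neutrophil sum, with 205 to 492 normalized counts in aged and 617 to 886 in young wild type. The other neutrophil markers had 0 to 33.8 in these libraries, the highest being S100a9 in aged replicate 4, so the sum is mainly that of 1 gene. Their part in the Fcgr4 result was not tested.

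Fcgr1, the high-affinity IgG receptor, had fewer normalized counts than the other 5 genes in each aged wild-type library. Aged wild-type replicates 3, 4 and 6 had 26.9, 111 and 74.6 normalized counts, the first of these from 21 reads, and young wild-type libraries A, B, C and E had 118, 85.0, 126 and 121. The groups overlapped, and the log2 fold change of -0.86 had a 95% interval of -1.79 to 0.08 (limma adjusted p = 0.146). Without aged replicate 4 it was -1.29 (adjusted p = 0.0299).

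Fcgr2b, the inhibitory receptor, had 919, 1111 and 649 normalized counts in aged wild-type replicates 3, 4 and 6, against 713, 724, 614 and 629.9 in young wild-type libraries A, B, C and E. Its log2 fold change of 0.38 had a 95% interval of -0.09 to 0.85 (limma adjusted p = 0.193). Scaled by read totals without Gm26917, mitochondrial and immunoglobulin genes, it was 0.57 with an adjusted p of 0.0462. B cells also transcribe this gene, and 11 of 12 B cell markers rose in aged wild type; their part in the Fcgr2b value was not tested.

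Fcgrt, the FcRn heavy chain, had 184, 396 and 181 normalized counts in aged wild-type replicates 3, 4 and 6, against 465, 571, 458 and 374 in young wild-type libraries A, B, C and E. Aged replicate 4 again lay within the young range (log2 fold change -0.96 ± 0.26 SE, limma adjusted p = 0.0139). Without aged replicate 4 the change was -1.33, and without aged replicate 3 or 6 the adjusted p was 0.0641 or 0.0681. Aged replicate 4 also held the highest macrophage marker sum (40040.3) and the lowest B cell marker sum (14119) of the 3 aged wild-type libraries.

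**Figure D2:**
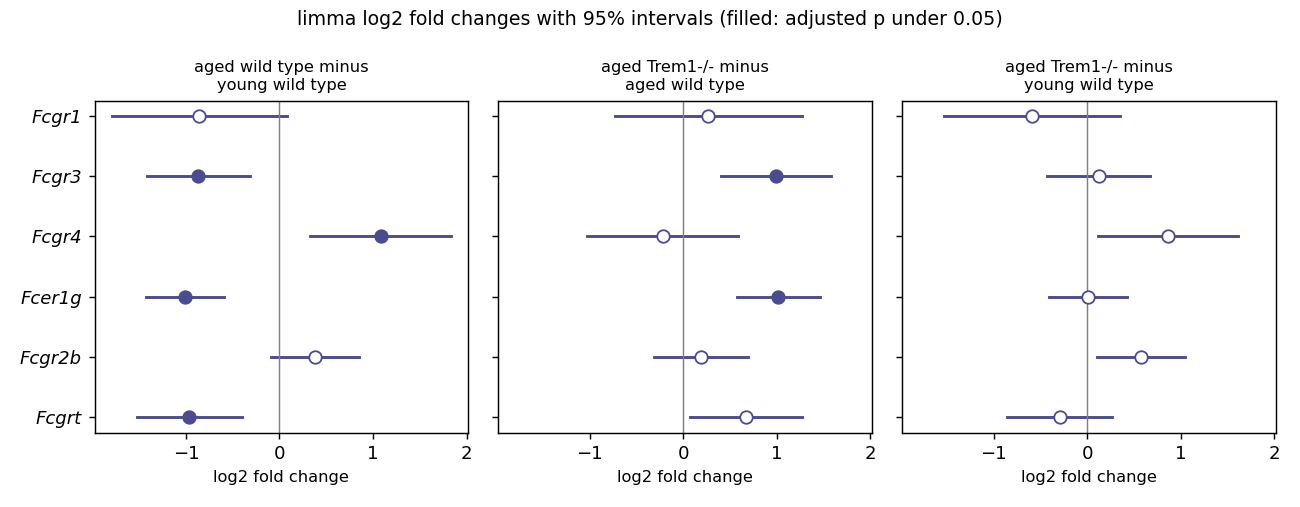
Log2 fold changes (horizontal axes) of the 6 Fc receptor genes from limma, with 95% intervals as bars, in 3 comparisons; filled circles have an adjusted p under 0.05. Fcer1g and Fcgr3 are filled on opposite sides of 0 in the first and second panels, which share the aged wild-type libraries, and no circle is filled in the third.

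The comparison within aged mice asks what the Trem1 genotype, as labelled, goes with. Fcer1g and Fcgr3 were higher in the libraries labelled Trem1-/-, 2.02-fold and 1.99-fold, and the other 4 genes did not pass. That is 2 of 6 at a limma adjusted p under 0.05, all higher, with 18.4% of tested genes called (11.5% higher and 6.82% lower). The median log2 fold change of the 6 was 0.47, against 0.02 over all tested genes. Under the same scaling alternative 745 tested genes were higher and 1820 lower, in place of 1327 and 785, and both calls held. Both this comparison and the one with age use the same 3 aged wild-type libraries, so their values are not independent.

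Fcer1g had 486, 441 and 405 normalized counts in replicates 1, 2 and 3 labelled Trem1-/-, against 154, 313 and 217 in aged wild-type replicates 3, 4 and 6. The groups did not overlap (log2 fold change 1.01 ± 0.20 SE, limma adjusted p = 0.00746), which was so for 34.9% of tested genes in one direction or the other. The call held under all 19 alternatives tried (adjusted p up to 0.0389). Fcgr3 had 1934, 2136 and 1984 normalized counts in the libraries labelled Trem1-/-, against 705, 1843 and 804 in aged wild type. Its lowest library labelled Trem1-/- lay just above aged wild-type replicate 4 (0.99 ± 0.27 SE, limma adjusted p = 0.0268). Without that aged library the change was 1.42. The Fcgr3 call was lost without replicate 1, 2 or 3 labelled Trem1-/-, without aged wild-type replicate 3 or 6, in a fit of these 2 groups alone and with edgeR (adjusted p = 0.0568 to 0.0968).

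Fcgrt had 456, 385 and 304 normalized counts in the libraries labelled Trem1-/-, against 184, 396 and 181 in aged wild type. Its log2 fold change of 0.67 had a 95% interval of 0.07 to 1.27 and did not pass after adjustment (limma adjusted p = 0.110), and without aged wild-type replicate 4 it was 1.04 (adjusted p = 0.00265). Fcgr4 had 247, 82.5 and 186 normalized counts in the libraries labelled Trem1-/-, against 147, 287 and 143 in aged wild type, and the groups overlapped (-0.22, interval -1.03 to 0.58). Fcgr1 had 46.0, 127 and 67.7 normalized counts in the libraries labelled Trem1-/-, against 26.9, 111 and 74.6 in aged wild type (0.27, interval -0.73 to 1.27). Fcgr2b had 832, 1457 and 817 normalized counts in the libraries labelled Trem1-/-, against 919, 1111 and 649 in aged wild type (0.19, interval -0.31 to 0.69). The intervals of these 3 genes all include 0.

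Set against young wild type, the libraries labelled Trem1-/- differed in age and genotype at once, which cannot be told apart without a young Trem1-/- group. With limma 0 of 6 genes passed, with 0.921% of tested genes called (0.591% higher and 0.33% lower); 2 genes, Fcgr2b and Fcgr4, had an unadjusted p under 0.05, and edgeR and DESeq2 also called 0. Fcer1g averaged 444 ± 40.8 normalized counts in the libraries labelled Trem1-/- (SD, n = 3) and 442 ± 28.6 in young wild type (n = 4), a log2 fold change of 0.01 with a 95% interval of -0.41 to 0.42. Fcgr3 averaged 2018 ± 105 and 1855 ± 55.5 in the same order (0.12, interval -0.43 to 0.67), and its lowest library labelled Trem1-/- (1934) lay above its highest young one (1904). Fcgrt averaged 382 ± 75.9 and 467 ± 80.6 (-0.29, interval -0.86 to 0.27). Fcgr2b was higher in each library labelled Trem1-/- than in any young one (0.58, interval 0.11 to 1.04, limma adjusted p = 0.242). The groups of 15.8% of tested genes did not overlap here. Fcgr4 was higher in 2 libraries labelled Trem1-/- (247 and 186) than in any young one, while replicate 2 (82.5) lay within the young range (0.86, interval 0.11 to 1.62, limma adjusted p = 0.270).

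Because macrophage markers moved with the groups, each gene was also set against the mean log2 level of the 11 markers in its own library. That mean was 10.9 ± 0.12 in the libraries labelled Trem1-/-, 9.94 ± 0.37 in aged wild type and 11.05 ± 0.06 in young wild type. On this scale aged and young wild type overlapped for the 3 genes that had fallen. Relative to the markers, Fcer1g differed between aged and young wild type by 0.10 on the log2 scale, Fcgrt by 0.15, Fcgr3 by 0.24 and Fcgr1 by 0.25, with overlapping groups in each case. Fcgr4 and Fcgr2b were higher relative to the markers in aged wild type, by 2.19 (4.57-fold) and 1.49 (2.81-fold), and did not overlap young wild type. The exact two-sided permutation p for each of these 2 was 0.0571, the smallest that 3 against 4 libraries allow, and 0.171 after adjustment over 36 comparisons within libraries. The marker mean itself differed by -1.11 between aged and young wild type, without overlap, while the median log2 fold change of all tested genes was -0.02. By their own counts Fcgr4 and Fcgr2b had limma log2 fold changes of 1.08 and 0.38, and the second did not pass. Such a ratio therefore holds the change of the markers as well as that of the receptor.

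Between the libraries labelled Trem1-/- and aged wild type, the marker-relative levels of Fcer1g and Fcgr3 differed by 0.04 and 0.02 on the log2 scale. Fcgr4 was lower relative to the markers in the libraries labelled Trem1-/- by 1.19, and its groups did not overlap (exact two-sided permutation p = 0.1, the smallest that 3 against 3 allow, 0.229 adjusted). Fcgr2b differed by -0.78, Fcgr1 by -0.70 and Fcgrt by -0.30, with overlap. The marker mean itself differed by 0.97 in this comparison, without overlap. Against young wild type, Fcgr2b was higher relative to the markers in the libraries labelled Trem1-/- by 0.71, Fcgr3 by 0.26 and Fcer1g by 0.15, without overlap (exact two-sided permutation p = 0.0571 each, 0.171 adjusted). Fcgr4 differed there by 1.001, and replicate 2 labelled Trem1-/- lay within the young range. The marker mean itself differed by -0.14 in this comparison, without overlap. By their own counts Fcgr2b, Fcgr3 and Fcer1g had limma log2 fold changes of 0.58, 0.12 and 0.01, and none passed.

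**Figure D3:**
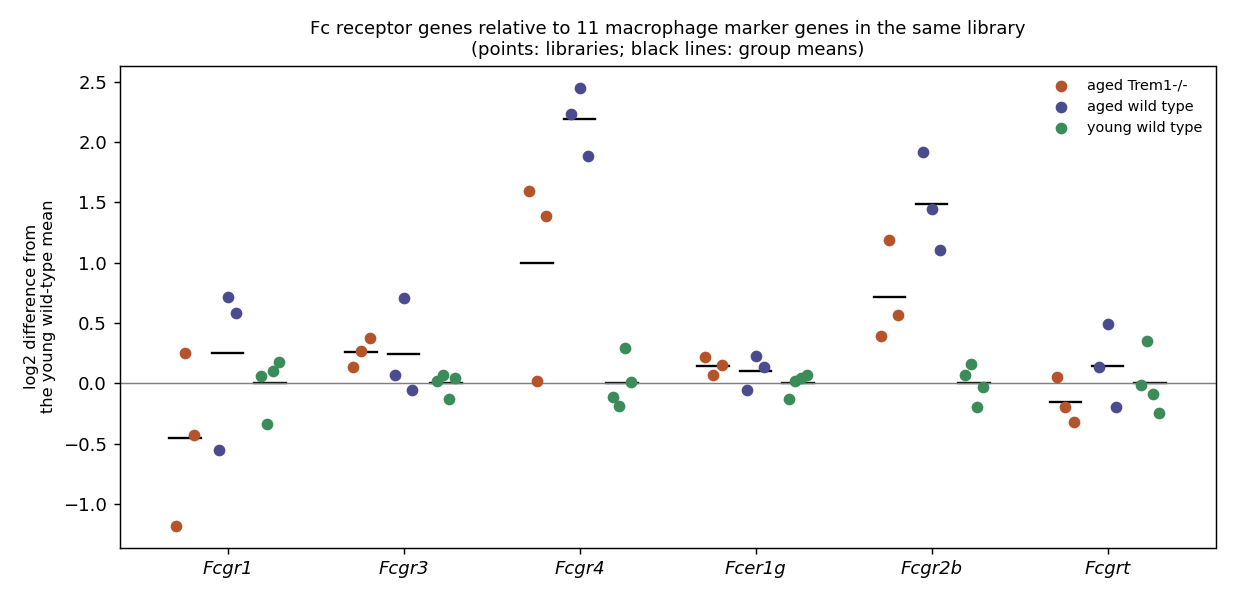
Log2 level of each Fc receptor gene minus the mean log2 level of 11 macrophage markers in the same library, drawn as the difference from the young wild-type mean (vertical axis); points are libraries and black lines group means. Aged wild-type libraries lie above young wild type for Fcgr4 and Fcgr2b, and the 3 groups lie close together for Fcer1g.

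Activating receptors stood lower relative to the inhibitory one in each aged wild-type library than in any young one, except Fcgr4. These ratios of normalized counts within a library do not depend on library scaling, and they are compared between groups and not between genes. The log2 ratio of Fcgr3 to Fcgr2b was -0.38, 0.73 and 0.31 in aged wild-type replicates 3, 4 and 6, against 1.42, 1.38, 1.54 and 1.55 in young wild-type libraries A, B, C and E. The groups did not overlap, and their means differed by -1.25 (0.42 of the young ratio). The ratios of Fcer1g to Fcgr2b and of Fcgr1 to Fcgr2b differed by -1.39 and -1.24, also without overlap. For Fcgr1 the highest aged wild-type library (-3.10) lay just below the lowest young one (-3.08). The ratio of Fcgr4 to Fcgr3 was 3.87-fold higher in aged wild type, at -2.25, -2.68 and -2.48 on the log2 scale, against -4.55, -4.68, -4.00 and -4.46 in young wild type. The exact two-sided permutation p was 0.0571 for each of these 4 ratios (0.171 adjusted over the same 36 comparisons), so none could pass 0.05. Fcgr4 to Fcgr2b differed by 0.70, with overlap. B cells also transcribe Fcgr2b, and in aged wild type B cell markers were higher and macrophage markers lower than in young wild type. The part of this cell mixture in the ratios was not tested.

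In the libraries labelled Trem1-/- the log2 ratio of Fcgr3 to Fcgr2b was 1.22, 0.55 and 1.28 in replicates 1, 2 and 3. Replicate 2 lay below aged wild-type replicate 4 (0.73), and the mean difference from aged wild type was 0.80 (exact two-sided permutation p = 0.200). All 3 libraries lay below young wild type, by 0.45 in the mean (exact two-sided permutation p = 0.0571, 0.171 adjusted). The ratio of Fcgr1 to Fcgr2b was lower than in young wild type by 1.17 in the mean, again without overlap. The ratio of Fcgr4 to Fcgr3 was -2.96, -4.68 and -3.41 in these libraries and lay below all 3 aged wild-type libraries (mean difference -1.21, exact two-sided permutation p = 0.1). Replicate 2 was the lowest of the 3 libraries in the ratios of Fcgr3 to Fcgr2b and of Fcgr4 to Fcgr3, whereas replicate 1 was the lowest in the ratio of Fcgr1 to Fcgr2b (-4.15, against -3.51 and -3.57 in replicates 2 and 3). Replicate 2 had the highest Fcgr2b and Fcgr1 and the lowest Fcgr4 of its group. It also had the highest macrophage marker sum (84628), most of it Lyz2, and the lowest B cell marker sum (6373). Its mean log2 level of the macrophage markers was 10.983, against 10.975 and 10.771 in replicates 1 and 3. Its mast cell markers summed to 1973 normalized counts, against 417 and 429 in replicates 1 and 3, its mesothelial and fibroblast markers to 328, against 17.4 and 29.8, and its dendritic cell markers to 349, against 163 and 170. The part of these cells in the ratios was not tested.

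**Figure D4:**
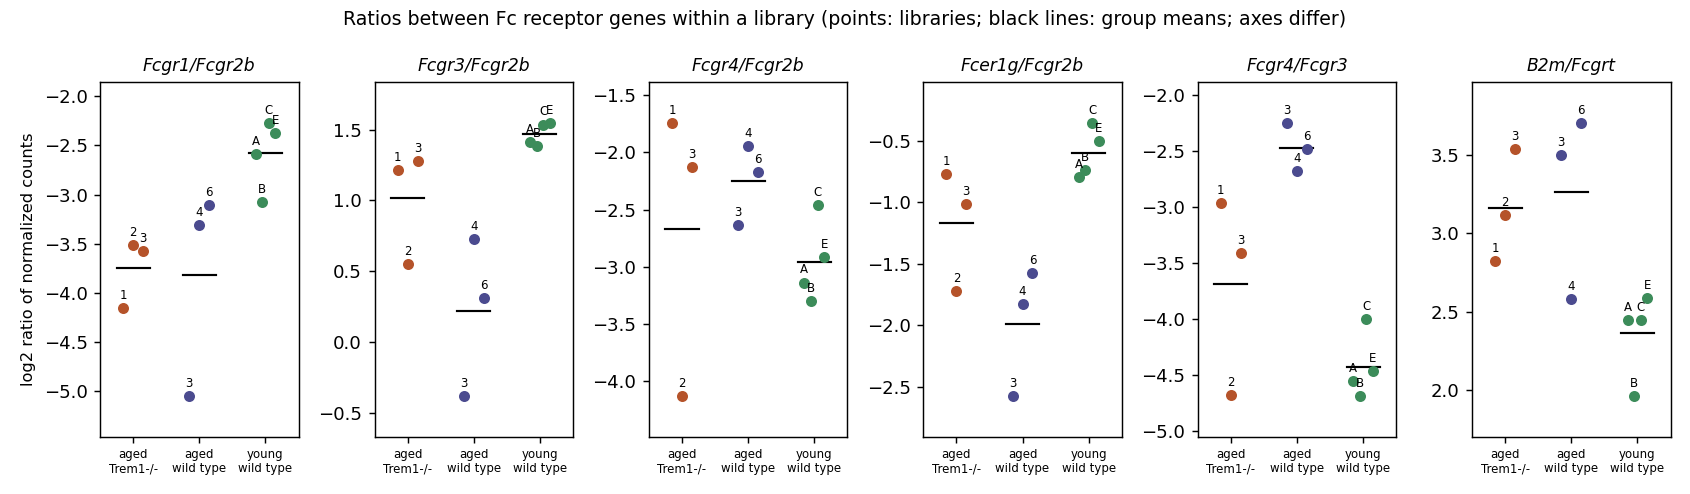
Log2 ratios of normalized counts between pairs of genes within each library (vertical axes differ between panels); points are libraries with their replicate and black lines are group means. Fcgr3/Fcgr2b and Fcer1g/Fcgr2b are lower, and Fcgr4/Fcgr3 higher, in aged wild type than in young wild type.

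Among other Fc receptor genes, those that rose in aged wild type are known from B cells. Of 13 such genes 8 were tested, and 5 were higher and 1 lower in aged than in young wild type, with a median log2 fold change of 2.39. Of all tested genes 33.3% were called there (14.3% higher and 19% lower). Fcrl1, a B cell Fc receptor-like protein, averaged 176 ± 73.3 normalized counts in aged wild type and 22.0 ± 6.51 in young wild type (2.91 ± 0.28 SE, limma adjusted p = 0.000126). Fcrl5, another of this family on B cells, rose by 3.16, Fcmr, the IgM receptor, by 2.6, Fcer2a, the low-affinity IgE receptor CD23, by 2.34, and Fcrla by 2.03 on the log2 scale. Fcrls, a mouse Fc receptor-like gene known from microglia, was the one that fell (-1.58 ± 0.31 SE). In the libraries labelled Trem1-/- 4 of the 8 were lower than in aged wild type, with a median of -1.39: Fcrl1 by 2.12, Fcer2a by 1.55, Fcrl5 by 1.45 and Fcrla by 1.34. Of all tested genes 18.4% were called in that comparison (11.5% higher and 6.82% lower). The part of B cells in the values of these Fc receptor genes was not tested. Of the 2 other chains of the mast cell IgE receptor, Fcer1a had 0 to 26.95 normalized counts and Ms4a2 had 0 to 13.5 in the 10 libraries, and 0 of 7 tested mast cell markers passed with limma in any comparison (unadjusted p under 0.05 in 1 or 2 of them per comparison; edgeR and DESeq2 also called 0).

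Genes that act downstream of the receptors moved in both directions with age. The counts of this and the next paragraphs are limma's and stand beside 33.3% of all tested genes called in aged against young wild type. In Fc receptor signalling 9 of 23 tested genes were higher and 6 lower in aged than in young wild type (median -0.07). Syk, the kinase that docks on the gamma chain, averaged 4468 ± 681 normalized counts in aged wild type and 2231 ± 309 in young wild type (1.0 ± 0.14 SE, limma adjusted p = 0.000569), opposite in direction to Fcer1g. Vav3, an exchange factor for Rac, fell by 1.36 and Prkcd, a protein kinase C, fell by 0.54 on the log2 scale. Syk is also transcribed in B cells, and their part was not tested. Of the 6 NADPH oxidase genes 4 fell and 2 rose: Cyba and Cybb, which encode the p22phox and gp91phox subunits, fell by 0.77 and 0.83, and Rac2, the hematopoietic Rac GTPase, rose by 0.70. Of 22 actin and phagosome genes 7 fell and 2 rose, a share near the 33.3% of all tested genes, with Arpc5, an Arp2/3 subunit, at -0.63 and Limk1, a cofilin kinase, at -1.05, and with Coro1a, an actin-binding protein abundant in leukocytes, at 1.62. Rac1 fell by 0.62, but 51.4% of its exonic bases overlap Daglb.

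Some other receptors that signal through the gamma chain fell in aged wild type as well. Of 5 tested genes of other receptors that use this chain, 3 fell: Clec4d by 1.23, Clec4e by 1.14 and Cd300ld by 0.95 on the log2 scale (median -0.95). Clec4d and Clec4e encode the pattern receptors MCL and Mincle. The call of Clec4e was lost without aged wild-type replicate 3 (adjusted p = 0.0624). Clec4d and Cd300ld were higher in the libraries labelled Trem1-/- than in aged wild type, by 1.40 and 0.95 (limma adjusted p = 0.00551 and 0.0175); the second was lost in 3 of the fits that leave out 1 library (adjusted p up to 0.0582). Clec4e differed by 0.74 and did not pass (adjusted p = 0.155).

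Inhibitory genes were mixed. Of 11 other receptors with an inhibitory tyrosine motif, 2 rose and 4 fell in aged wild type: Cd300lf by 2.95 and Pecam1, an adhesion receptor also of endothelium and platelets, by 2.0 in the first set, and Sirpa, the receptor for CD47, by 0.54 and Cd300a by 1.05 in the second. Of 8 inhibitory phosphatases and adaptors 2 rose and 1 fell, again near the 33.3% of all tested genes: Dok3 rose by 0.65, Cblb, a ubiquitin ligase, rose by 0.82 and Dok2 fell by 1.33. Inpp5d, the phosphatase of Fcgr2b, did not pass in any comparison. In the libraries labelled Trem1-/- Sirpa was higher than in aged wild type by 0.54, Cd300a by 1.13 and Dok2 by 0.79, while Pecam1 was lower by 1.54 and Dok3 by 0.48.

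In the libraries labelled Trem1-/- 5 of 23 signalling genes were higher and 3 lower than in aged wild type with limma (median 0.00; 18.4% of all tested genes called), led by Vav3 (1.2), Gab2 (0.83), an adaptor of the PI3-kinase pathway, Pik3ap1 (-0.80), another such adaptor, and Lcp2 (0.76), the scaffold SLP-76. Scaled by read totals without Gm26917, mitochondrial and immunoglobulin genes, 2 were higher and 9 lower, so the balance of this list depends on scaling. Of the NADPH oxidase genes 3 were higher (Cybb by 0.78 and Cyba by 0.59 among them) and 2 lower (Ncf4 by 0.41 among them), and that split was the same under either scaling alternative. Of the actin genes 3 were higher and 2 lower, among them Limk1 (1.04) and Coro1a (-1.28). The calls of Lcp2, Pik3ap1, Ncf4, Dok2, Dok3, Pecam1, Fcrl5, Fcrla and Fcer2a in this comparison were each lost in at least 2 of the fits that leave out 1 library (adjusted p up to 0.160).

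The partner of FcRn was higher in the libraries labelled Trem1-/- than in either wild-type group. B2m, beta-2-microglobulin, had 3230 to 3541 normalized counts in the libraries labelled Trem1-/-, 2095 to 2370 in aged wild type and 2230 to 2538 in young wild type. It was higher in the libraries labelled Trem1-/- than in aged wild type by 0.57 (limma adjusted p = 0.00468) and than in young wild type by 0.50 (limma adjusted p = 0.0380), the second call being lost in 8 of the 10 fits that leave out 1 library. The log2 ratio of B2m to Fcgrt was 2.82, 3.12 and 3.54 in the libraries labelled Trem1-/-, 3.50, 2.58 and 3.70 in aged wild type, and 2.45, 1.96, 2.45 and 2.59 in young wild type. The libraries labelled Trem1-/- lay above all young ones (difference 0.80, exact two-sided permutation p = 0.0571, 0.171 adjusted), and the aged wild-type libraries overlapped them. Of 6 tested genes of FcRn pairing and recycling 2 fell in aged wild type, a share near the 33.3% of all tested genes called (list median -0.01). These were Rab11fip5 and Rab11a, which act in recycling endosomes and fell by 1.43 and 0.53. Rab11fip5 was higher in the libraries labelled Trem1-/- than in aged wild type by 1.2.

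Of 7 transcription factors known for Fc receptor genes, 3 fell in aged wild type with limma, where 33.3% of all tested genes were called, and 4 did not pass. Here 6 had an unadjusted p under 0.05, and edgeR and DESeq2 each called 5. Spi1, which encodes PU.1, averaged 449 ± 61.1 normalized counts in aged wild type and 704 ± 37.1 in young wild type (-0.66 ± 0.12 SE, limma adjusted p = 0.00174). Cebpa and Cebpb, factors of myeloid differentiation, fell by 1.6 and 1.3 on the log2 scale; 20.7% of the exonic bases of Cebpb overlap Tmem189. In the libraries labelled Trem1-/- Cebpa, Cebpb and Spi1 were higher than in aged wild type by 1.52, 1.37 and 0.65, and Irf8, an interferon-regulatory factor of myeloid cells and B cells, was lower by 0.54 (limma adjusted p = 0.0457, lost in 8 of the 10 fits that leave out 1 library). Fcgr3 and Fcgr4, whose promoters both hold TTCCTC, moved in opposite directions with age, and the part of these letters was not tested.

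**Figure D5:**
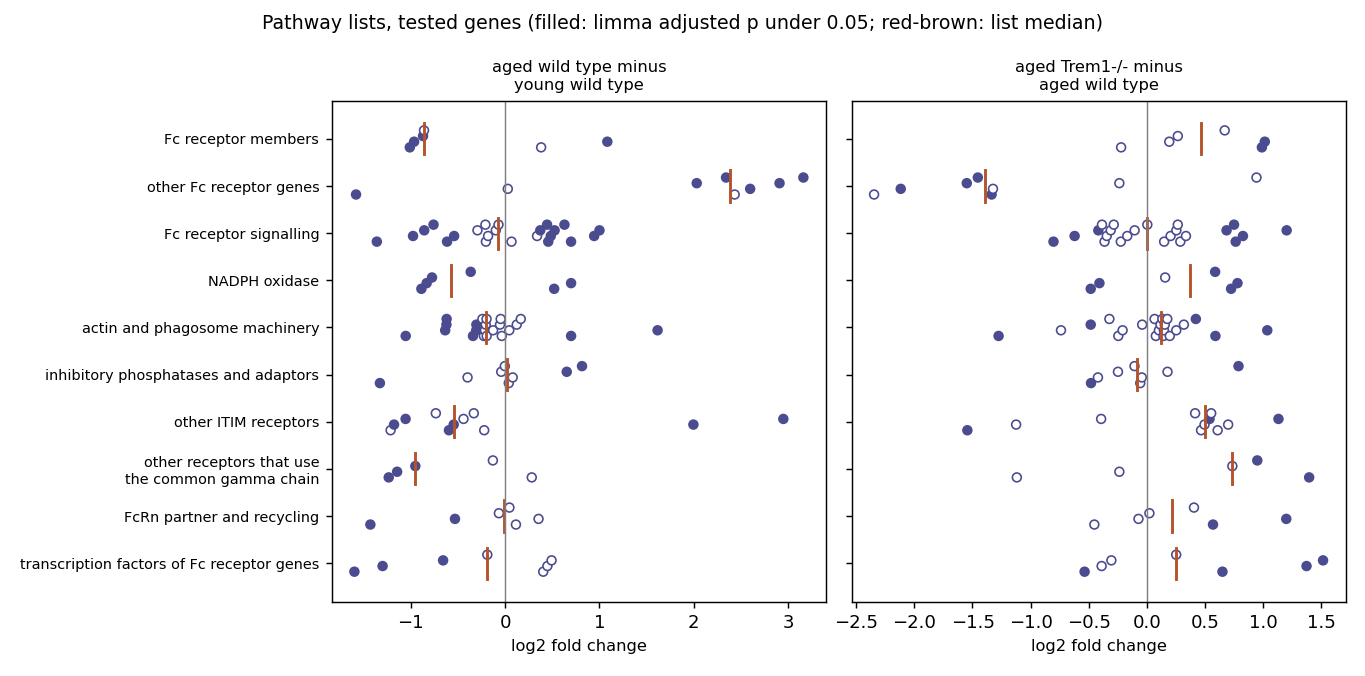
Log2 fold changes from limma (horizontal axes) of the tested genes of each list in 2 comparisons; points are genes, filled at an adjusted p under 0.05, and red-brown bars are list medians. In the other Fc receptor list 5 of 8 genes are filled to the right and Fcrls to the left in aged against young wild type, 4 are filled to the left in the libraries labelled Trem1-/- against aged wild type, and the 2 panels share the aged wild-type libraries.

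Between the libraries labelled Trem1-/- and young wild type, 2 genes of the 9 lists passed: B2m (above) and Cd300lf (1.82, limma adjusted p = 0.0471). The call of Cd300lf was lost with edgeR (adjusted p = 0.0528), with a minimum mean of 50 normalized counts and in 7 of the 10 fits that leave out 1 library. In the other 7 lists limma called 0 genes; 0 to 4 genes per list had an unadjusted p under 0.05, edgeR called 0, and DESeq2 called 0 or 1 per list.

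Profiles were compared over the 10 libraries by the root mean square difference of log2 levels, after each gene was centred on its own mean. The libraries share their depth and composition, and these values are a description. Among the 6 genes Fcgr3 and Fcer1g were the closest pair (0.19 on the log2 scale), and Fcgrt was next to each of them (0.27). Of 11505 other tested genes the closest to Fcer1g were Stom (0.0829), Wwc2 (0.0832) and Lamp1 (0.102), a lysosomal membrane protein. Those closest to Fcgr3 were Arsg (0.112), Gda (0.121) and Sqor (0.128), and those closest to Fcgrt were Fam219a (0.138), Csf2ra (0.143) and Lgmn (0.159). Fcgr2b was nearest to Susd6 (0.145), Ptpn1 (0.157) and Gm44694 (0.157). Fcgr1 and Fcgr4 had no close match: their nearest genes were Sh2d4b (0.256) and Pkd1l2 (0.332).

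The Fc receptor genes of chromosome 1 did not all move in the same direction, and the part of their position was not tested. Between the start of Fcgr2b and the end of Fcer1g on chromosome 1, 17 genes are annotated and 6 were tested. The 2 that are not Fc receptor genes, Sdhc, a subunit of succinate dehydrogenase, and Tomm40l, a mitochondrial import protein, had log2 fold changes of -0.33 (limma adjusted p = 0.0807) and -0.02 in aged against young wild type and did not pass in any comparison. Within this span, aged wild type had lower Fcgr3 and Fcer1g and higher Fcgr4 than young wild type.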

How the data were processed

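Total RNA of mouse peritoneal macrophages was sequenced in 10 libraries. Per the labels' protocols, RNA was extracted with a Qiagen column kit, copied into full-length cDNA with a stranded Takara kit and made into libraries with a NEB kit. Per the submitters' processing notes, the tools were featureCounts 1.5.0-p3, DESeq2 1.20.0, STAR and fastp, and the build was GRCm38. For the annotation release and the strand setting of counting, the answer is not given in the sources used here. The authors deposited 1 table of 54532 genes, of which 17593 held no read. Its expression values, deposited for each library and as a mean, are counts normalized by the authors (a signal). In each library all values (100%) were whole multiples of one step (tolerance 1e-06), so whole reads were recovered, 2663744 to 5603498 per library. A floor of 3 reads equals 1.85 to 3.84 normalized counts, and covers counting error only. The authors also deposited a DESeq2 comparison, aged against young wild type, with log2 fold changes and their errors. Its Wald statistic is a score as deposited. Each p-value in it was deposited raw and adjusted. Counts of replicates differed beyond sampling noise, with 4.78 to 24.1 as chi-square over its degrees of freedom. Each library was treated as a separate sample, and this spread does not show whether the libraries are separate mice. Symbols were matched to GENCODE M21 on GRCm38 (98.7% of genes) for identifiers and coordinates, and by symbol to RefSeq promoters, which held all 6 genes.

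Since the values are normalized, limma-trend was used (R 4.3.3, limma 3.58.1), with log2(normalized count + 1) as input, in 1 fit of the 10 libraries and 3 groups, with 7 residual degrees of freedom. The 11506 genes that averaged at least 10 normalized counts were tested, with Benjamini-Hochberg adjustment at 0.05 over all of them. This log2 scale understates changes of genes with few counts. As alternatives on the recovered reads, edgeR 4.0.16 (quasi-likelihood) called 3753 genes between aged and young wild type and DESeq2 1.42.0 called 3740, against 3837 with limma. The others were TMM scaling, read totals without Gm26917, mitochondrial and immunoglobulin genes, a pseudocount of 0.5 or 5, every gene with a read, a minimum mean of 50, a fit of the 2 groups compared, and leaving out each library. Ratios within a library were compared by exact two-sided permutation tests in 36 comparisons adjusted together (scipy 1.17.1). The fit was tested on simulated data. All 6 genes are described. Of each list, up to 4 genes with the smallest adjusted p were named (some are not reported here), and for each of the 6 the 3 genes with the closest profile; others, such as Fcrls and Inpp5d, were named after their values were seen. The genes and lists were chosen with earlier results of these data known.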

Additional observations from a re-analysis of the deposited data

Results flagged for a closer look

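In young wild type (n = 4) 3 genes named above had 1 library far from the other 3, by Dixon's test of the gap over the range, among 57 groups tested; chance gives about 1 in 20. Pik3ap1, an adaptor of the PI3-kinase pathway, had 215 normalized counts in replicate C, against 299.8 to 310.3 in the others. Rab11fip5, of recycling endosomes, had 1058 normalized counts in the same replicate C, against 1210 to 1220 in the others. Cyba, the p22phox subunit of the NADPH oxidase, had 1095 normalized counts in replicate A, against 1235 to 1262 in the others. None of the 6 Fc receptor genes had such a library in this group, and groups of 3 libraries were not tested.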

How the results depend on the processing

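Of the 6 Fc receptor genes, limma called 4 in aged against young wild type, and 2 to 4 with 1 library left out. It called 2 in the libraries labelled Trem1-/- against aged wild type, 1 to 3 with 1 library left out, 1 with edgeR and 1 in a fit of those 2 groups. Against young wild type it called 0, under all alternatives. Of all tested genes, 2112 passed in the libraries labelled Trem1-/- against aged wild type, 1174 in a fit of those groups alone and 1077 to 2800 with 1 library left out. Against young wild type 106 passed, 263 with every gene with a read, 36 with a mean of at least 50, 448 with DESeq2, 298 in a fit of those groups alone and 0 to 268 with 1 library left out; the 0 came without replicate 3 labelled Trem1-/- (limma, 1268 at an unadjusted p under 0.05). The cause of these shifts was not tested.

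Some values that passed no test changed sign. Without Gm26917, mitochondrial and immunoglobulin genes in the totals, Fcgr2b was at -0.0215 against aged wild type and Fcer1g at -0.0187 against young wild type, in the libraries labelled Trem1-/-; the median of all tested genes was then -0.19 and -0.02, and 0.17 in aged against young wild type. With 1 library left out, the log2 fold change against aged wild type was -0.31 to 0.70 for Fcgr1, -0.0807 to 0.37 for Fcgr2b and -0.55 to 0.23 for Fcgr4, and that of Fcer1g against young wild type was -0.0610 to 0.0708. Log2 differences in ratios were -0.54 to 0.43 for Fcgr1 to Fcgr2b, -0.87 to 0.31 for Fcgr4 to Fcgr2b and -0.44 to 0.12 for B2m to Fcgrt against aged wild type, and -0.17 to 1.02 for Fcgr4 to Fcgr2b against young wild type. Relative to macrophage markers, Fcgr3 was at -0.13 to 0.25 and Fcer1g at -0.0338 to 0.11 against aged wild type, and Fcgrt at -0.0290 to 0.32 in aged against young wild type.

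The 4 calls of aged against young wild type kept their direction under all alternatives. Fcgr1, with 21 to 158 reads per library, had the widest intervals. No paired analysis was made because the labels give no pairing of libraries. Aged wild type and the libraries labelled Trem1-/- share 1 replicate number, which the labels do not describe as a pair. No batch is given in the labels.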
